A study of Mus musculus with 23 samples.

Results

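Keratin, hair, olfactory receptor and testis genes are little expected in brain cortex, and their probes were followed here through a set of cortex arrays as a reference for noise. The members were all probes whose platform symbol begins with Krt, Krtap, Olfr, Spata, Spag, Tssk, Sprr, Defb, Tdrd or Tecta, with Tex and a digit, or is a protamine (Prm) or transition protein (Tnp) gene. The symbol alone chose them, and no measured value entered the choice. The rule gave 154 probes of 146 genes among 8997 probes with 1 symbol (1.71%), and 1 further spot that names a pair of receptor genes was left out. They comprise 45 olfactory receptor probes, 26 keratin probes, 14 probes of keratin-associated proteins and 60 probes of genes named for sperm, testis or germ cells. The other probes are 3 of Sprr genes, 3 of beta-defensins, 2 of Krtcap genes and 1 of Tecta. Some symbols carry these prefixes although the gene is broadly expressed. Of the 154 probes, 14 stand on a list of genes taken here as such (Spag9, Tex261 and Krtcap2 among them). Tex14 and Spata25 also stand on it, and their place there is doubtful. The list was not checked against tissue data, so a split by it is approximate.

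Keratins are the intermediate filament proteins of epithelia, and keratin-associated proteins cross-link them in the hair shaft. Olfactory receptors are the odorant-binding G protein-coupled receptors of sensory neurons in the nose. Protamines and transition proteins replace histones in maturing sperm, Tssk genes encode testis-specific kinases, and Tudor domain (Tdrd) proteins act with small RNAs that silence transposons in germ cells. Brain cortex lacks the epithelia and germ cells in which these genes do their known work.

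Prefrontal cortex was taken from Balb/c males that had been injected under the skin when 8 weeks old. Tumour mice received 1000000 cells of CT-26.WT, a line derived from a colon carcinoma of the mouse, in 300 ul of PBS, and control mice received 300 ul of PBS alone. Both were killed at 18, 72 or 192 h, and 1 RNA of each kind shared each 2-colour array, one in Cy3 and one in Cy5. Replicates 1 and 2 at 72 and 192 h used poly(A) RNA, and the later ones and all of 18 h used total RNA. The labels do not say whether a replicate is 1 animal or a pool, so the p-values measure the spread between these RNA pairs only.

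Of 23 arrays, 16 were kept: 6 at 18 h, 3 at 72 h and 7 at 192 h, in 9 replicates. The other 7, on which probe names could not be borne out by the spots' brightness, are given beside them. Left out were all poly(A) arrays of 72 h, a poly(A) array of replicate 1 at 192 h and an array of replicate 3 at 72 h. The kept array of replicate 3 at 72 h, the only one of that replicate, bears out its names less surely. Its spot brightness ranked little like that of other arrays of its own print layout (mean Spearman's rho 0.06). Poly(A) RNA thus remains only in replicates 1 and 2 at 192 h. The arrays came in 5 print layouts. Kept arrays of 18 and 72 h are all of layout 5 and those of 192 h of layouts 3, 4 and 5, so RNA kind and layout are in part tied to time. Of the 9 replicates, 6 were dye swaps, in which the same RNA pair was measured in both dye orientations. The intensities are arbitrary units, so the number of arrays limits the precision. Of the cortex markers, 3 of 4 excitatory and 4 of 5 inhibitory neuron probes were detected on 8 or more of the kept arrays. So were 0 of 3 olfactory bulb probes, 1 of 2 of choroid plexus and meninges (Kl) and 1 of 4 of skin epithelium (Perp). The files do not state which scanner channel held which dye, and the first was read as Cy3. If it held Cy5, every sign below would turn, those of the tumour over PBS ratios and of the dye portion alike, and a channel called PBS would be the tumour channel, with sizes, counts and p-values as given.

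The keratin, hair, olfactory and testis spots were on the whole dimmer than other spots, but they were not dark. A spot was called usable when both channels gave an accepted signal above background, and detected when signal with background was at least 2 times the local background in both channels. Over the 16 kept arrays the share of member spots usable ran from 23.2% to 96.1% with a median of 63.9%, against 42.1%, 96.2% and 73.0% for other named spots. It was the lower of the pair on 16 of 16 arrays. The share detected was 4.52% at the lowest, 21.6% at the median and 54.2% at the highest, against 9.89%, 37.1% and 61.6%. It was lower than in other spots on 14 of 16 arrays, and on most arrays the majority of the member spots stayed below the limit.

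Over usable spots, the members' median signal with background was 1.86 to 3.00 times background (median of the arrays 2.35), against 1.89 to 2.93 (median 2.59) for other named spots. Spots of ribosomal protein genes, transcribed in every cell, reached 2.20 to 18.3 times background with a median of 7.79. In percentiles of spot intensity within an array, the members' median lay between 30.4 and 51.4 (median of the arrays 40.7), where other named spots lie near 50 by construction. Probes of 23 other testis genes gave a median of 36.8 and those of 22 other skin and hair genes 37.8. Ribosomal protein spots lay at a median of 93.5. The members thus sat beside the other tissue-restricted genes and below the typical spot.

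**Figure D1:**
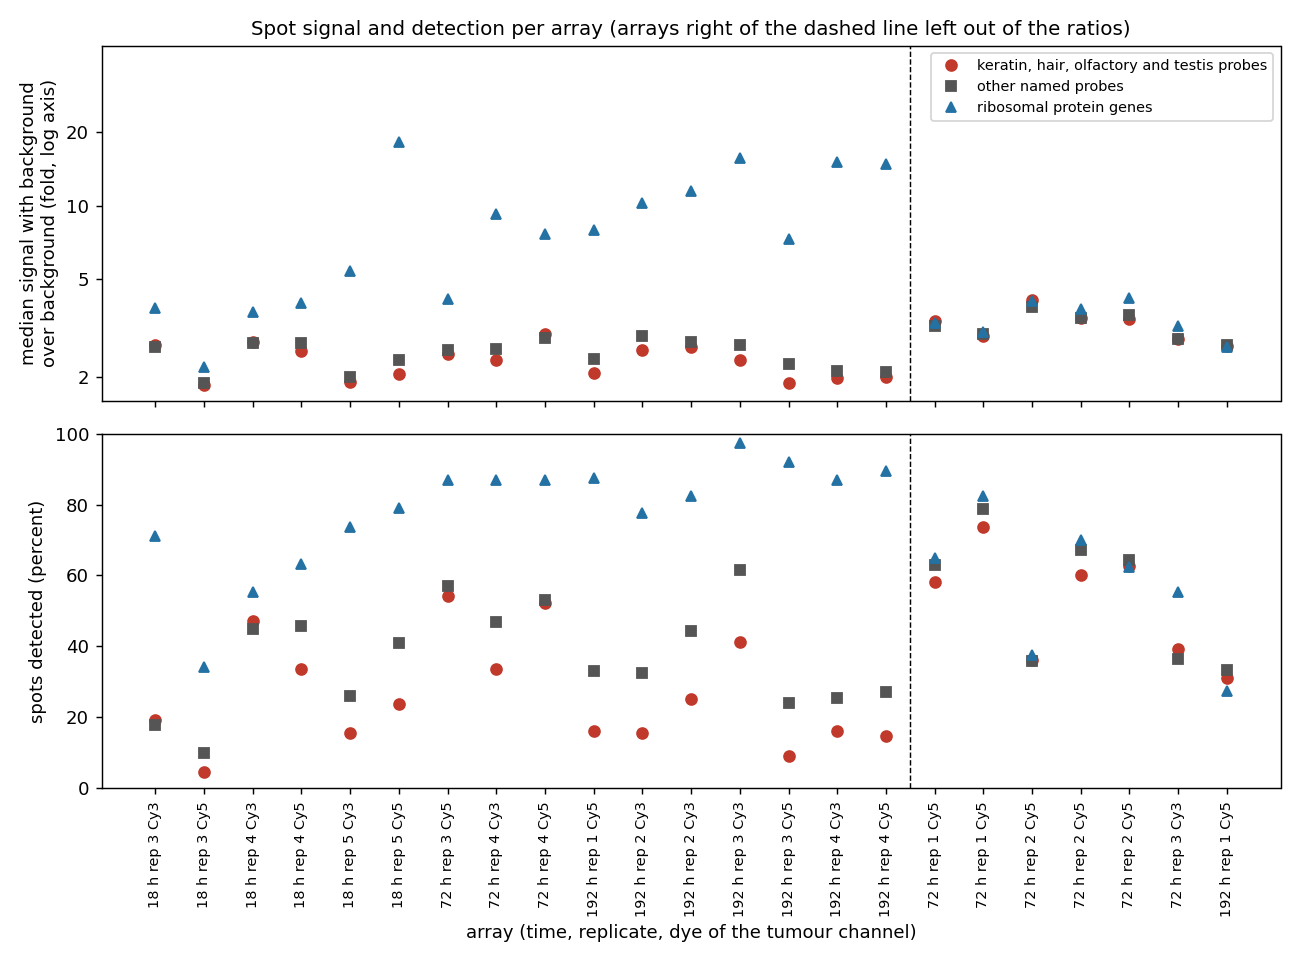
Median signal with background over background (upper panel, log axis) and percent of spots detected (lower panel) for each of the 23 arrays, for the keratin, hair, olfactory and testis probes, the other named probes and the ribosomal protein genes. On the 16 kept arrays the ribosomal protein spots stand above both other sets, and on the 7 arrays right of the dashed line the sets lie together. This contrast follows in part from how the arrays were chosen.

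The 7 arrays left out looked different. There the members' median percentile was 42.0 to 54.4 and that of the ribosomal protein spots only 37.1 to 66.4. The members' signal over background had a median of 3.39 and that of the other named spots one of 3.22. On these arrays the names did not separate dim from bright spots, and no member's ratio from them enters the results below. Arrays were kept by rank agreement with arrays whose ribosomal protein and oxidative phosphorylation genes were bright. The contrast in ribosomal protein spots between kept and left-out arrays therefore follows in part from that choice.

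Spot brightness depends on the probe as well as on the transcript, so no order of transcript levels is read from it. Among single members, 22 of 154 (14.3%) were detected on 8 or more of the 16 kept arrays, against 31.2% of the other named probes. At the other end 8 (5.19%) were detected on none, against 2.07%. The 22 hold 7 olfactory receptors, 2 keratins and 3 keratin-associated proteins, and 8 of the genes named for testis or sperm. The 8 probes never detected were for Krt5, Olfr143, Olfr926, Spata17, Spata19, Spata9, Tex13a and Tssk4, named here because no detection was seen, and 3 of these genes (Spata17, Spata9 and Tssk4) had another probe that was detected on at least 2 arrays.

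The brightest member by mean percentile was Tex19.1, a germ cell and placenta gene known for restraining retrotransposons. It was usable on 15 arrays and detected on 15, at a lowest percentile of 8.13, a median of 96.1 and a highest of 99.7, and at a median of 5.53 times background. The low value came from the second array of replicate 2 at 192 h. Its tumour over PBS log2 ratio stayed between -0.42 and 0.19 in the 8 replicates with a value.

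The others of the 8 brightest were, by mean percentile, Krtcap2 at 80.5 (a subunit of the oligosaccharyltransferase that glycosylates proteins), 1 probe of Spata24 at 79.6, Krtap1-5 at 74.6, Sprr1a at 72.2, Krtap2-4 at 69.6, Olfr155 at 69.0 and Tex261 at 68.0. Krtcap2, Spata24 and Tex261 are on the broadly expressed list, and the others are hair, cornified skin, olfactory or germ cell genes. Krtap2-4 had the widest range of them, from a percentile of 2.18 to 99.9. It was at 2.18 to 49.8 on its 4 arrays of 18 h and at 97.2 or more on its 5 arrays of 192 h. Both channels moved together there, so its log2 ratio was between -0.29 and -0.07 in the 3 replicates with a value at 192 h. On the 72 h arrays of replicate 4 it was at 99.5 and 99.8, and on that of replicate 3 at 37.9. These arrays of 18 and 72 h are of print layout 5, and those of 192 h are of layouts 3 and 4. Between 18 and 192 h, time and layout thus cannot be told apart for this probe.

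The 4 dimmest among members usable on 8 or more arrays were Olfr16, Olfr970, Olfr749 and Tex26, at mean percentiles of 21.1, 21.4, 21.7 and 22.8. Probes of 1 gene did not give the same brightness. The other Spata24 probe had a mean percentile of 32.3 and was detected on 2 arrays against 11, and the pair of Tssk4 probes had 55.7 and 28.9. By group the median of the probes' mean percentiles was 32.4 for keratins, 39.5 for olfactory receptors, 40.9 for keratin-associated proteins and 42.3 for the testis and sperm genes, against 44.5 for other named probes.

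One property that the rule did not use is the base composition of the promoters. In vertebrates, genes used in most cells tend to have promoters rich in the CG dinucleotide, and many tissue-restricted genes do not. RefSeq promoter windows (GRCm38.p6, 250 bases before to 50 after the start) were matched by gene identifier for 125 of the 154 probes. Of several windows of a gene, the one with the lowest genomic coordinate was used, whatever the strand. The observed over expected count of CG, which reads the same on both strands, was over 0.6 for 21 of them (16.8%), against 59.0% of 7008 other named probes and 35.9% of all 27025 windows. It was over 0.6 for 0 of 36 olfactory receptor and 0 of 12 keratin-associated probes, for 2 of 19 keratin probes, and for 18 of 52 testis and sperm probes. Of the members on the broadly expressed list it was over 0.6 for 8 of 10, and of the other members for 13 of 115. Members over that limit and usable on 8 or more arrays (19) had a median mean percentile of 44.3, and those under it (79) one of 37.5. A bright member on the broadly expressed list and a dim receptor are shown to make the contrast visible, with CG in capitals. The Tex261 window lies at chr6:83775763-83776062 and the Olfr749 window at chr14:50744275-50744574, both on the minus strand.
Tex261: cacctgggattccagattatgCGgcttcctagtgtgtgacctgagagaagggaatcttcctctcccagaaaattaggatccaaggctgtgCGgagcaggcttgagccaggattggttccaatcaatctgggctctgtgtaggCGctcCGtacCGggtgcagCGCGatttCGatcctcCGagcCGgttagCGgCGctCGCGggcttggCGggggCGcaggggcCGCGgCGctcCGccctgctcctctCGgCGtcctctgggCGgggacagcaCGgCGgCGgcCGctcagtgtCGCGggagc
Olfr749: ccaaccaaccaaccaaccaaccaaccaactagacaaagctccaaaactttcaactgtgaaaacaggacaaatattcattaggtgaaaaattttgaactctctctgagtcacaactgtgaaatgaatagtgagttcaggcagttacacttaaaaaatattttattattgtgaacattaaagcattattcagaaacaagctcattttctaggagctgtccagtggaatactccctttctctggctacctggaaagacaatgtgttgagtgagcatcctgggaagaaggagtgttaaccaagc
The first holds 29 CG dinucleotides (observed over expected 0.91) and the second 0. The composition is a description of the windows and says nothing of which genes were transcribed here.

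The tumour over PBS log2 ratio of the members scattered about 0 in every replicate, with a spread close to that of other probes in 7 of the 9. Values per replicate are means of scanner files and arrays after loess. In 5 of the swaps and in both replicates with tumour RNA in Cy5 alone, the members' SD was between 0.18 and 0.41. At 18 h the SDs were 0.27, 0.31 and 0.28 (replicates 3, 4 and 5), and at 72 h they were 0.23 and 0.44 (replicates 3 and 4). They were 0.41, 1.00, 0.21 and 0.18 in replicates 1 to 4 at 192 h. Replicate 2 at 192 h, whose arrays all have tumour RNA in Cy3, stood above the rest.

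Over the 9 replicates the median SD was 0.28 for members and 0.26 for other named probes. The ratio of the members' SD to that of the others was 0.75 at the lowest, 0.90 at the median and 2.19 at the highest, and it exceeded 1 in 4 of 9 replicates. In replicate 4 at 72 h it was 2.01 and rested on 1 probe, Spata48. Without the member farthest from 0 in each replicate, which was chosen after the values were seen, the ratio ran from 0.67 to 1.88 and exceeded 1 in 2 of 9. With the scaled median absolute deviation, which single probes hardly move, the ratio was 0.59 to 1.38 with a median of 1.06 and exceeded 1 in 7 of 9.

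**Figure D2:**
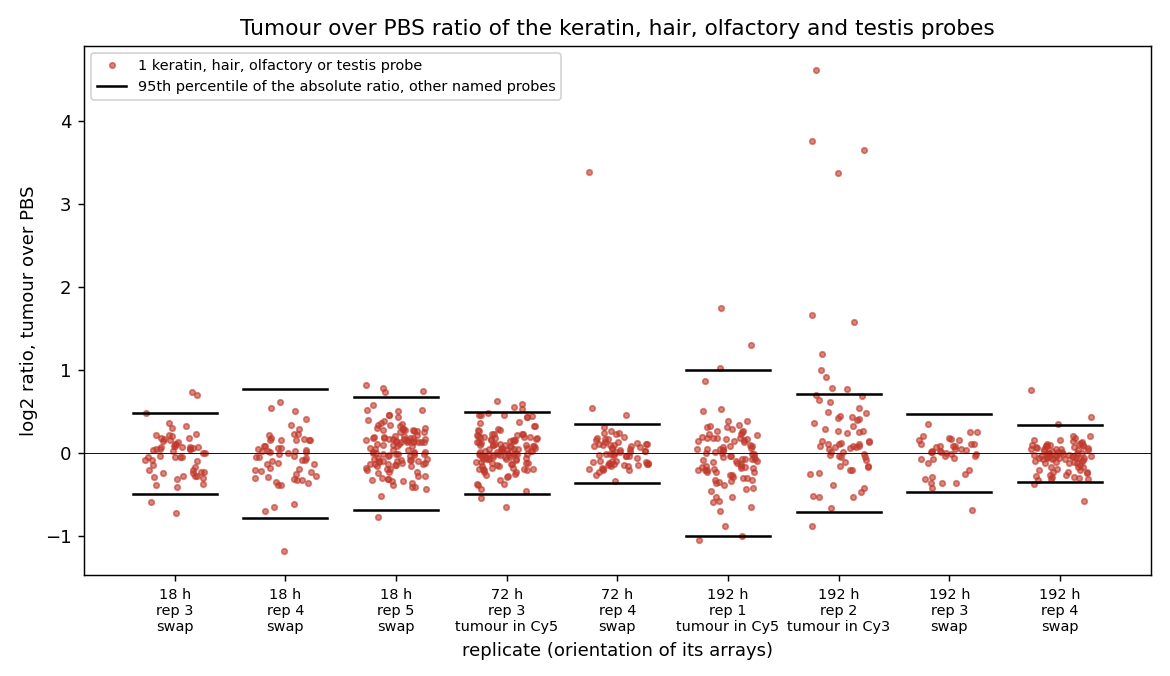
Tumour over PBS log2 ratio of each keratin, hair, olfactory or testis probe (points) in the 9 replicates, with lines at plus and minus the 95th percentile of the absolute ratio of other named probes. Points lie mostly inside the lines, and the farthest are the 4 above 3 in replicate 2 at 192 h and Spata48 at 3.39 in replicate 4 at 72 h.

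As a limit of noise, the 95th percentile of the members' absolute log2 ratio was 0.33 at the lowest, 0.52 at the median and 2.78 at the highest of the 9 replicates. The share of other named probes beyond the members' own limit was 0.39% to 10.9% with a median of 6.09%. It was above 5% in 7 of the 9 replicates, and below it in replicate 3 at 18 h (2.77%) and replicate 2 at 192 h (0.39%). An absolute log2 ratio above 1 was met by 0 members in 5 replicates, where 0.08% to 1.31% of the others met it. It was met by 1 member in replicate 4 at 18 h (1.69%, others 2.80%) and by 1 in replicate 4 at 72 h (1.49%, others 0.46%). It was met by 5 of 95 in replicate 1 at 192 h (5.26%, others 4.99%) and by 8 of 68 in replicate 2 at 192 h (11.8%, others 2.73%).

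Across the 77 members with a value in 5 or more replicates, the SD over replicates had a median of 0.25, from 0.06 to 2.15. The 6377 other probes with as many values had a median of 0.24. The steadiest were Tex261 (SD 0.06), Olfr15 (0.08) and Tex47 (0.09). The most variable were Krtap13 (2.15), Olfr672 (1.69) and Krt14 (1.69), and each of these has its highest ratio in replicate 2 at 192 h. Krtap4-13, printed as a pair of spots, gives the error within an array. Its spots differed by 0.02 to 1.36 in log2 ratio on the 12 arrays with both (median 0.29), close to the median of 0.28 over 495 such pairs of all probes.

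Single arrays were noisier than swaps, and the members more so than other probes. On single kept arrays the members' SD was 0.24 to 0.99 with a median of 0.45, against 0.25 to 0.75 and 0.41 for other named probes, and it was the larger on 12 of 16. The dye swaps split the ratio into portions. The mean of the orientations is called the tumour over PBS portion. The deviation from that mean, equal and opposite in the orientations, is called the dye portion, since a difference between Cy3 and Cy5 falls in it. With a single array per orientation, each portion also holds the spot error of both arrays. Within a single swap, dye and array error thus cannot be told apart. The SD of the dye portion over the members exceeded the SD of the tumour over PBS portion in 6 of 6 swaps, and over other named probes in 4 of 6.

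The dye portion over the members had SDs of 0.43, 0.33 and 0.59 in the 18 h swaps, 0.57 in the 72 h swap, and 0.26 and 0.41 in the 192 h swaps. The tumour over PBS portion had SDs of 0.27, 0.31 and 0.28, of 0.44, and of 0.21 and 0.18. Across members, the ratios of the opposite orientations correlated with r between -0.67 and -0.07 (median -0.41, Spearman's rho between -0.49 and -0.09), over 41 to 121 probes that share the same arrays. For other named probes r was between -0.39 and 0.09 (median -0.16, rho between -0.36 and 0.04). A member had the same sign in both orientations in 30.0% to 50.7% of cases (median 43.6%). The share for other named probes was near this, at 36.6% to 50.9% (median 47.2%). Without Krt14, left out after its values were seen, the median r over the members was -0.25.

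**Figure D3:**
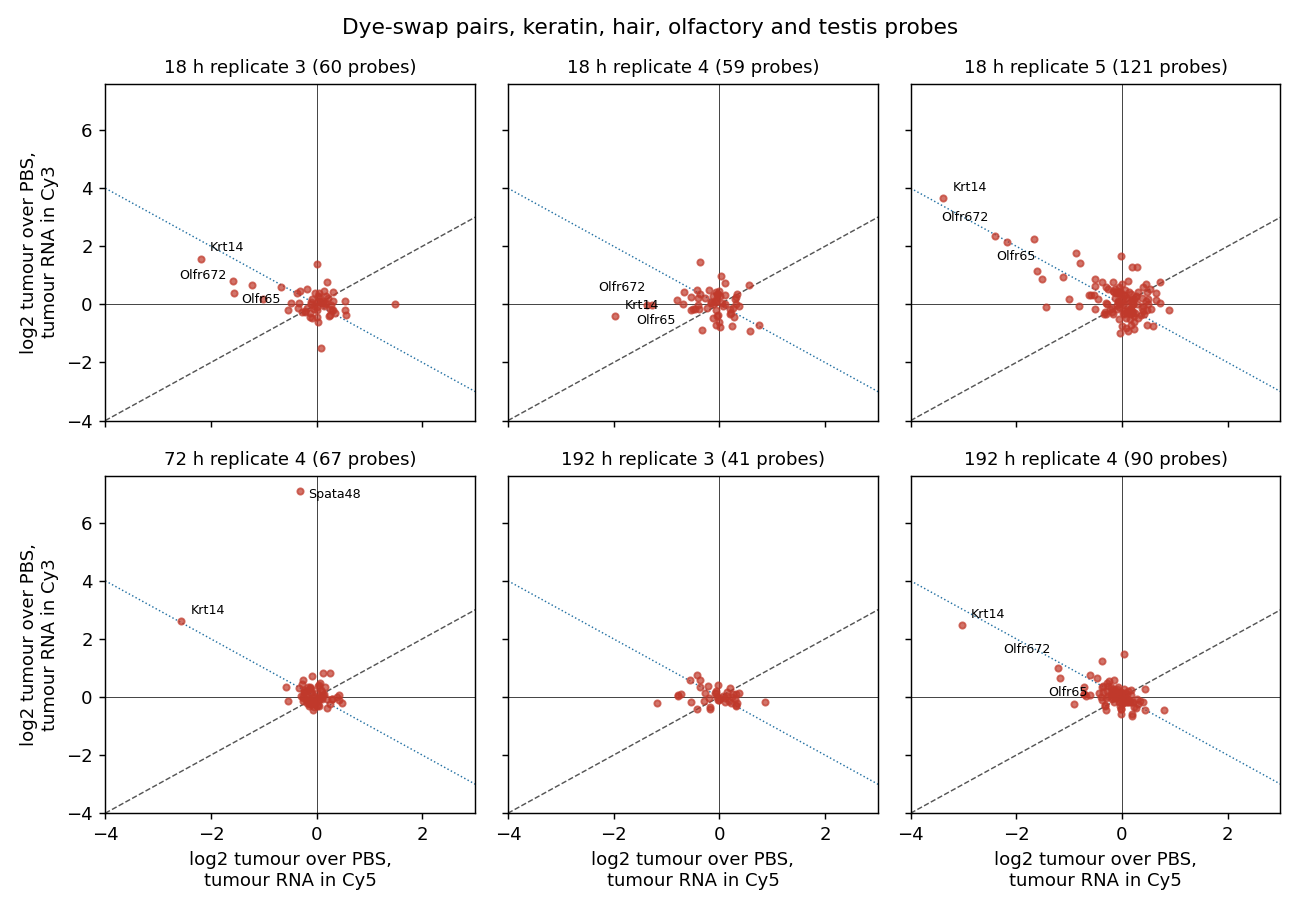
Log2 tumour over PBS ratio of each keratin, hair, olfactory or testis probe with tumour RNA in Cy5 (horizontal axis) and in Cy3 (vertical axis), 1 panel for each of the 6 dye swaps, with a dashed line of equal ratios and a dotted line of opposite ratios. Krt14 lies along the dotted line in the swaps of 18 h replicate 5, 72 h replicate 4 and 192 h replicate 4, and Spata48 stands at 7.10 in 1 orientation alone.

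Krt14, the type I keratin of basal keratinocytes, showed the largest dye portion. With tumour RNA in Cy5 its log2 ratio was -2.19, -1.97 and -3.38 in replicates 3, 4 and 5 at 18 h, -2.56 in replicate 4 at 72 h and -3.03 in replicate 4 at 192 h. With tumour RNA in Cy3 it was 1.57, -0.40, 3.67, 2.62 and 2.47 in the same order. The dye portion therefore lay towards Cy3 in 5 of 5 swaps, with a log2 mean of 2.31 ± 1.03 (SD, n = 5). In replicate 4 at 18 h it was 0.78, although the Cy3 channel read the lower on the array that gave -0.40. The tumour over PBS portion was -0.31, -1.18 and 0.15 at 18 h, 0.03 at 72 h and -0.28 at 192 h. In replicate 2 at 192 h, measured with tumour RNA in Cy3 only, it read 3.66, with no array of the other orientation to set beside it.

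Olfr672 showed the same pattern, with a dye portion of 1.27 ± 0.77 (SD, n = 4) that lay towards Cy3 in 4 of 4 swaps. It read 3.76 in replicate 2 at 192 h, -0.11 in the swap of replicate 4 at 192 h and -0.65 to -0.02 in the 18 h swaps. Olfr65, named after its values were seen, had a dye portion of 1.17 ± 0.67 (SD, n = 4), and Olfr140 one of 0.83 ± 0.49 (SD, n = 3). All 3 encode odorant receptors, and each is detected on 8 or 10 of the kept arrays. The dye portion is thus not limited to spots that fail detection.

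Of the 82 members in 3 or more swaps, 21 (25.6%) had a dye portion towards the same dye in every swap, against 18.9% of 6502 other probes. The mean dye portion was over 0.5 towards Cy3 for 5 of the 82 (6.10%), against 2.01% of the others, and over 0.5 towards Cy5 for 0 of the 82, against 0.06%. For those 5 (Krt14, Spata48, Olfr672, Olfr65 and Olfr140) the highest single value was above 1. For Spata48 the mean rests on 1 swap, with values of 3.71, 0.02 and 0.12 in the swaps of 72 h replicate 4 and of 192 h replicates 3 and 4. Which dye the portion lay towards depends on the reading of the channels given above.

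**Figure D4:**
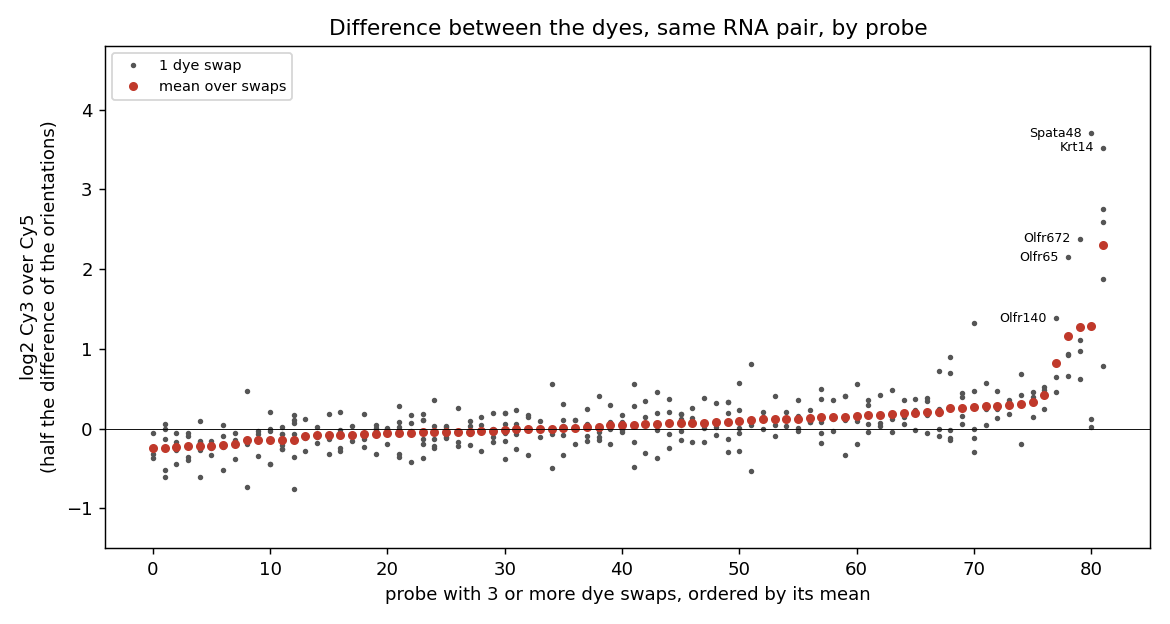
Dye portion of the log2 ratio, Cy3 over Cy5, for the 82 keratin, hair, olfactory and testis probes with 3 or more dye swaps, ordered by mean (large points), with single swaps as small points. Most means lie between -0.25 and 0.5, and 5 probes, from Olfr140 to Krt14, stand above.

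Far ratios on single arrays met low signal in 1 channel in part of the cases. Over the kept arrays, 19 of 1540 member values (1.23%), from 9 probes, had an absolute log2 ratio above 2, against 532 of 102682 (0.52%) for other probes. Krt14 gave 8 of the 19 and Olfr672 gave 3. The weaker channel was under 1.25 times background in 3 of the 19 and at least 2 times in 8. The 3 are Krtap13 at 4.62, Olfr672 at 3.76 and Olfr970 at 3.38, all on the second array of replicate 2 at 192 h, with PBS channels at 1.10, 1.24 and 1.21 times background.

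Member values with a weaker channel between 1.25 and 1.5 times background had an SD of 1.29 (35 values), those from 1.5 to 2 times 0.45 (848 values), those from 2 to 3 times 0.52 (517 values) and those above 0.53 (137 values). The median absolute deviation, scaled alike, fell along the same classes from 0.51 to 0.31, 0.30 and 0.27. For other probes it was 0.51, 0.32, 0.27 and 0.25. The bulk of the members was thus as noisy as other probes of the same signal, and a few far probes set the SD. These values share arrays and probes and are a description.

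Each probe with 2 or more replicates at a time was tested against a ratio of 0 with limma's moderated statistic, with the dye orientation as a covariate and Benjamini-Hochberg adjustment over all probes. At 18 h 79 of the 154 members could be tested, and 0 were called at an adjusted p under 0.05, as over all 5733 probes (0.0%). At an unadjusted p under 0.05 there were 4 of 79, 2 higher and 2 lower, beside a share of 5.97% over all probes. The members' median log2 ratio was -0.004, beside -0.02 over all probes, with 37 above 0 and 42 below. The smallest p-values belonged to Spag9, a scaffold protein of JNK signalling, and to Olfr672, Olfr480 and Tssk1.

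Spag9 had log2 ratios of 0.29 in replicate 4 and 0.58 in replicate 5, a mean of 0.43 ± 0.16 (SE, n = 2, limma adjusted p = 0.775). Olfr672 had -0.59, -0.65 and -0.02 in replicates 3, 4 and 5 (limma adjusted p = 0.789). Tssk1 had 0.61 and 0.13, and Olfr480 -0.40 and -0.44. None of these passed the test.

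At 72 h 54 members could be tested, and 1 was called, beside 0.0225% (1 of 4440) over all probes, so the only probe called at 72 h was a member. The unadjusted count was 2 of 54, beside 1.46%. The median was -0.005, beside -0.01 over all probes. The probe was that of Spata48, a gene named for spermatogenesis. Replicate 3 gave a log2 ratio of 0.10 and replicate 4 one of 3.39, with a fitted mean of 3.39 ± 0.22 (SE, limma adjusted p = 0.0051).

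The fitted mean equals the value of replicate 4, because replicate 3 kept 1 orientation only and no other replicate of Spata48 informs the dye term. Its 1 residual degree of freedom comes from the pair of replicates at 192 h, so the SE holds nothing of the gap between the replicates of 72 h. In replicate 4 the array with tumour RNA in Cy3 gave 7.10 and its swap gave -0.32. On the first of these the tumour channel read 4962230 units in the first scanner file above a local background of 545224, and the PBS channel 27949 above 125123. The tumour channel was 9.97 times background over the files and the PBS channel 1.34 times. On the swap array the channels were at 2.17 and 1.64 times background. On the 8 other kept arrays with a value Spata48 lay between -0.44 and 0.29, so the call rests on 1 array.

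At 192 h 79 members could be tested, and 1 was called, beside 0.0155% (1 of 6465) over all probes. The unadjusted count was 5 of 79, all higher under this reading of the channels, beside 3.71%. The median was 0.01, as over all probes. The called probe was that of Krtap13, a keratin-associated protein gene of hair, with -0.15 in replicate 1 and 4.62 in replicate 2 and a fitted mean of 2.23 ± 0.16 (SE, n = 2, limma adjusted p = 0.0123).

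The replicates had opposite signs and opposite dye orientations, and replicates 3 and 4 gave no value with both orientations. The mean and the dye term together take up both values, and the 1 residual degree of freedom comes from the replicates of 18 h, so the SE of 0.16 holds nothing of the gap between the replicates of 192 h. The 4.62 came from 1 array and 2 of its 3 scanner files. There the PBS channel read 10911 and 29522 units above backgrounds of 143184 and 233835, that is 1.10 times background on average, and the tumour channel was at 4.22 times. On the other kept arrays Krtap13 lay between -1.51 and 0.87. In replicate 5 at 18 h it was 0.87 with tumour RNA in Cy3 and -1.51 with it in Cy5, and in replicate 3 at 18 h -0.26 and -0.22.

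**Figure D5:**
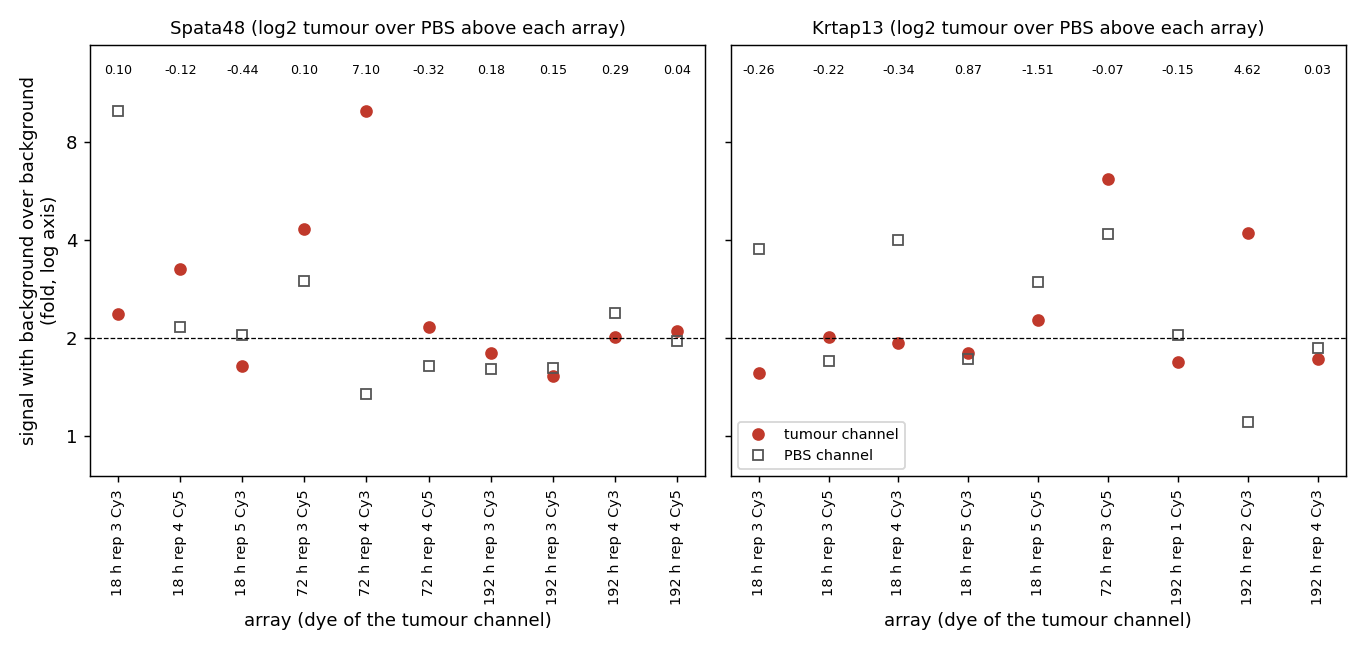
Signal with background over background (log axis) of the tumour channel (filled) and the PBS channel (open) for Spata48 and Krtap13 on each kept array with a usable value, with the log2 tumour over PBS ratio written above and a dashed line at the detection limit of 2. On the arrays with ratios of 7.10 and 4.62 the channel read as PBS is the lowest of its panel, at 1.34 and 1.10 times background.

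Tdrd1, a Tudor domain protein of germ cells, had 0.53 and 0.54 in replicates 3 and 4 at 72 h (fitted mean 0.78 ± 0.18 SE, limma adjusted p = 0.999). The fitted mean lies above both values, because replicate 3 kept 1 orientation only and the dye term of the fit shifts it. Its ratios at 192 h were -0.59, 0.62, 0.02 and 0.004 in replicates 1 to 4, so the times overlapped. Krtap1-5 at 72 h had -0.03 and -0.15, and Olfr157 -0.02 and -0.34. Their small p-values come from fits with the same dye term. At 192 h Krtap1-5 ran from -0.53 to 1.75.

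Tecta, the alpha-tectorin of the inner ear's tectorial membrane, had 1.30, 0.11 and 0.44 in replicates 1, 2 and 4 at 192 h (fitted mean 0.62 ± 0.13 SE, limma adjusted p = 0.98). It was higher in 3 of 3 replicates there and lower in 2 of 2 at 18 h (-0.19 and -0.31). In the swap of replicate 4 at 192 h it read 1.25 with tumour RNA in Cy3 and -0.37 with it in Cy5. Olfr140 at 192 h had 0.16 and 1.58 in replicates 1 and 2, and Olfr160 had 0.51, 0.78 and 0.06 in replicates 1, 2 and 4. Neither passed the test.

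By group, calls at an adjusted p under 0.05 were 0 of 26, 10 and 22 olfactory receptor probes tested at 18, 72 and 192 h, and 0 of 12, 8 and 12 keratin probes. For keratin-associated proteins they were 0 of 6, 0 of 9 and 1 of 10, and for testis and sperm genes 0 of 30, 1 of 23 and 0 of 30. Of probes for other testis genes 0 were called at any time (14, 10 and 13 tested), and of those for other skin and hair genes 0 (11, 7 and 12 tested). Ribosomal protein probes gave 0 called, of 33, 32 and 37, with the unadjusted count also 0 at each time. Probes of a list of other genes taken as bright in cortex gave 0 called, of 16, 13 and 18. Their unadjusted counts were 4, 0 and 0. For other testis genes the unadjusted counts were 2, 0 and 1, and for other skin and hair genes 2, 0 and 0. Over all probes the unadjusted shares were 5.97%, 1.46% and 3.71%.

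Differences between the times could be tested jointly, in 1 limma test over the 3 times, for 34 members, and 0 were called, as over all 3171 probes (0.0%). The unadjusted count was 1 of 34, Olfr140, beside 2.78% over all probes. Pairs of times could be tested for more members. Between 72 and 18 h 0 of 37 were called (0.0% over all probes, unadjusted 0 of 37 beside 2.58%). Between 192 and 18 h 1 of 59 was called, Krtap13, beside 0.0207% over all probes (unadjusted 4 of 59 beside 4.55%). Between 192 and 72 h 1 of 51 was called, Spata48, beside 0.0236% (unadjusted 3 of 51 beside 3.28%). These are the probes called above, and the same single arrays set both differences. Krtap13 could not enter the joint test and neither could Spata48, because each had too few replicates at 1 time. In all 99 of the 154 members were tested at 1 time or more, 34 at all 3 times and 55 at none. The counts above therefore speak for the tested members, which had to be above background in at least 2 replicates. Only 4 members had a value in every replicate.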

How the data were processed

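Per the file headers and labels, the authors deposited 3 scanner files per array, with an intensity, a local background and a quality mark for each of 10080 spots and both channels. The authors' deposited scores, log ratios whose base and normalization are not given in the sources used here, served as an alternative. Spots with an accepted mark and a positive background-subtracted intensity in both channels were used, 1821 to 8638 per file of the kept arrays. Each file's log2 ratio was corrected by loess (span 0.3, 4 iterations) and signed as tumour over PBS. The ratios were then averaged over files, spots of 1 accession and arrays of a replicate, and a swap needed both orientations. Arrays were kept where spot brightness ranked like that of reference arrays (mean Spearman's rho of at least 0.1). The reference arrays were those of other print layouts on which ribosomal protein and oxidative phosphorylation genes were bright. The kept array of replicate 3 at 72 h passed with a mean rho of 0.20. With arrays of its own layout its mean rho was 0.06, beside 0.08 for its left-out swap array. The other kept arrays of that layout had 0.21 to 0.44. Channel A was read as Cy3, which no source states. With this reading the ratios correlate positively with the deposited scores, whose own direction is not given in the sources used here, and all signs would turn if it were wrong. Probes were fitted by time and dye orientation in R 4.3.3, with variances moderated by limma 3.58.1, and p-values were adjusted over all probes. In simulated data for 192 h (6465 probes), 98 of 100 changes of 1 in log2 and 100 of 100 changes of 2 were recovered, with 5 false calls. The simulated noise was normal with the same SD for every probe, and changes were put only in probes with values in most replicates. Far single values like those behind the calls here were not simulated. The recovery therefore does not give the power or the rate of false calls in the real data. Named members were those called, the 4 with the smallest p-values per time, the 8 brightest, the 4 dimmest, the 3 most and the 3 least variable, and Spata48, Krtap13, Tdrd1 and Tecta. The members, lists and limits were chosen with earlier results of these data known.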

Additional observations from a re-analysis of the deposited data

Results flagged for a closer look

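Krtap13 differed between 192 and 18 h by 2.51 in log2 ratio (SE 0.22, limma adjusted p = 0.0431), with values of -0.15 and 4.62 at 192 h and of -0.24 and -0.32 at 18 h. The difference rests on the array of replicate 2 at 192 h with the channel read as PBS at 1.10 times background. Spata48 differed between 192 and 72 h by -3.22 (SE 0.27, limma adjusted p = 0.0271), with a value of 0.16 in both replicates of 192 h and values of 0.10 and 3.39 at 72 h. That difference rests on the array of replicate 4 at 72 h with the channel read as PBS at 1.34 times background. Among the 4 replicates of 192 h, Tssk1 stood far from the others in replicate 1, at 0.15 against -0.24, -0.21 and -0.22. In all, 15 groups of values were examined for a far sample, and chance marks about 1 in 20.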

How the results depend on the processing

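At 72 h, 0 probes were called without background subtraction, with the first or second scanner file alone, with the dim-spot filter, without the dye covariate and with residual degrees of freedom required at that time, 3 with all 23 arrays, and 7 without loess. Members called at 72 h were 0 under each of these except without loess (1), and also 0 with the third scanner file alone and with the deposited scores. At 192 h, 0 probes and 0 members were called without background subtraction, with the second scanner file, the deposited scores, the dim-spot filter, all 23 arrays, 1 orientation taken as enough, no dye covariate and own residuals required. Leaving out 1 replicate gave 0 to 9 probes and 0 to 2 members at 72 h, and 0 to 1 of each at 192 h. At 72 h 9 probes were called without replicate 3 there and 9 without replicate 4, where the lone replicate is assumed to vary like the others, 2 without replicate 1 or 2 at 192 h and 0 without replicate 3 or 4 at 192 h. Spata48 could not be tested without replicate 4 at 72 h or replicate 3 or 4 at 192 h, nor Krtap13 without replicate 3 or 5 at 18 h or replicate 1 or 2 at 192 h, and each was called in the other fits that left out 1 replicate. The 6 calls between the times came without replicate 4 at 72 h. At 18 h the dim-spot filter called 1 probe and 0 members. Between the times, 1 probe was called with the deposited scores, 5 with all 23 arrays, and 0 to 6 probes and 0 to 1 members on leaving out 1 replicate, all in the joint test. Deviations from the time means correlated at -0.18 to 0.002 between samples of the same replicate number, and at -0.26 to 0.35 between different numbers. With so few replicates a time these deviations are tied to one another, so the check cannot decide whether the numbers pair samples. With the replicate block 1 probe was called at 72 h and 1 between the times, 0 at 192 h, and 0 members at any. The causes were not tested. Members named by a call or a small p-value were compared over the settings at the time that named them. None changed sign there in any setting that gave it a value. The other named members and times were not compared. The median share of member spots detected was 63.5% at a limit of 1.5 times background and 4.19% at 3. The members' median SD over replicates was 0.19 to 0.45 over all settings, and the median r of the swaps -0.58 to -0.23. The alternatives for the swaps, for leaving out a replicate's arrays from signal and detection, and for leaving out the farthest member were chosen after seeing the data. Leaving out broadly expressed members gave 39.3 for the median percentile, beside 40.7. Signal over background over all spots, faulty ones included, was not run. A ratio with a channel near its background is limited by that channel.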
